A study of Mus musculus with 22 samples.

Results

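The cytosolic ribosomal protein genes encode the proteins that, with ribosomal RNA, build the 2 subunits of the ribosome that translates mRNA made in the nucleus. Members were taken by gene symbol: protein-coding genes named Rpl or Rps followed by a digit, together with Rpsa, Rplp0, Rplp1 and Rplp2, and without the Rps6k kinases, the pseudogenes with -ps in the symbol, Rps3a2 and Rps3a3. Of 56691 gene identifiers in the files, 90 fitted this name rule and 85 of them had a mean level of at least 1 CPM, meaning counts per library scaled to a common total over all libraries. The 5 left out were Rps23rg1 with a mean of 0.708 CPM, Rpl39l with 0.496, Rpl3l with 0.206, Rpl27rt with 0.181 and Rpl10l with 0. By name, 50 members belong to the large subunit and 35 to the small subunit. One of the latter, Rps19bp1, fits the naming rule but encodes a protein that binds Rps19 and is not itself a ribosomal protein.

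Each ribosome holds 1 copy of almost every ribosomal protein, and cells keep the supply of these proteins matched. Most vertebrate ribosomal protein mRNAs begin with a run of pyrimidines, the 5′ terminal oligopyrimidine (TOP) motif, through which the mTOR kinase pathway sets how strongly they are translated. Control by mTOR acts on translation, so the mRNA levels described here do not report it. In microglia, the resident macrophages of the brain, protein synthesis accompanies the growth and remodelling that these cells go through in the first weeks after birth. A few members have a second, diverged copy, such as Rpl22l1 beside Rpl22, and nearly all have processed pseudogenes elsewhere in the genome.

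RNA was sequenced from CD11b+ cells that were pulled with antibody-coated magnetic beads from the brains of wildtype CF-1 mouse pups. In the HIE model of neonatal hypoxic-ischaemic encephalopathy, dams received lipopolysaccharide late in pregnancy and their pups went through a short global hypoxia on postnatal day 6 (P6), whereas control dams received saline and control pups normoxia. The groups were HIE and control on P7, and HIE, control and a group labelled hypoxia on P14, with 4 animals each. The labels put the 4 control animals of the earlier set on P8, P9, P10 and P11, and the study and the collection protocol put them on P7, which is the name used here. The hypoxia group is known only from its label. All 4 HIE animals on P7 are labelled male and their controls are 2 males and 2 females, while every P14 group holds both sexes. Animals whose names share a prefix, such as P6H55-7 and P6H55-12, are called a litter here. Each group held 2 such litters of 2 animals and no litter was divided between treatments, so litter and treatment cannot be told apart beyond the spread between the 2 litters of a group. The 8 libraries of the P7 set held 70191584 to 83469067 counts and the 14 of the P14 set 29751540 to 46404123, and 2 animals of the P14 HIE group had 2 libraries each, which were summed. Day is therefore confounded with library set and depth. The labels give separate animals, and all p-values here measure the spread between them. No fit held a term for litter, so littermates counted as independent animals. Where littermates are more alike than animals of different litters, the p-values and standard errors are too small.

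The TOP motif is the sequence feature that members are known to share. The windows below show the pyrimidine tract of at least 7 bases nearest to the annotated start of members that recur in the results. A TOP start was counted where the annotated first base of the transcript was C and at least 4 further bases, each C or T, followed it. By that strict rule 8 of 85 members qualified, or 9.41%, against 3.65% of 21617 protein-coding genes, and Rpl22, Rps2 and Rps27l were among them. Annotated first bases are often off by several bases, so a tract of C followed by C or T, at least 7 bases long on the transcript strand, was also looked for within 50 bases on either side. It was present in 53 members (62.4%), in 28 of 50 large-subunit genes (56%) and in 25 of 35 small-subunit genes (71.4%), compared with 41.1% of all protein-coding genes and 40.8% of the 14172 protein-coding genes at 1 CPM or more that are no members. The windows are 30 bases long in the GRCm39 build, 5′ to 3′ on the strand of the gene, with the tract in capitals.
Rpsa, chr9:119956748-119956777, plus strand: tgcgccagaggCTTTTTCCggagcggaagt
Rps2, chr17:24939072-24939101, plus strand: cggcgCCTCCCTCTTCTTCTTCTTCgggag
Rps6, chr4:86775665-86775694, minus strand: cggaagtaacgCCCCTCTaaagtcacttcc
Rps27, chr3:90120938-90120967, minus strand: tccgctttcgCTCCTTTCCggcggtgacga
Rps27l, chr9:66853336-66853365, plus strand: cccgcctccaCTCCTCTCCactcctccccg
Rplp1, chr9:61821876-61821905, minus strand: ttttggccctgCCCCTTCCgtctcgagtcg
Rpl10, chrX:73314454-73314483, plus strand: tgggagcgtCTCTTTTCCTCTggcgcggtg
Rpl13a, chr7:44778146-44778175, minus strand: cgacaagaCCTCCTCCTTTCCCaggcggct
Rpl22, chr4:152410136-152410165, plus strand: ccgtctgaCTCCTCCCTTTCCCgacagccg
Rpl41, chr10:128384977-128385006, minus strand: agcagtaggCCTCCCTCTCCgccctctcgg
The tracts run from 7 bases in Rps6 to 20 in Rps2. Counted from the annotated first base, they began upstream in Rplp1 (-22), Rps6 (-15), Rpl22 (-6) and Rps2 (-5). They began downstream in Rpsa (4), Rps27l (6), Rpl10 (7), Rpl13a (18), Rps27 (20) and Rpl41 (25). Rps27l met the strict rule through 5 pyrimidines at its annotated start, which are not the tract in capitals. Whether any of the tracts forms the 5′ end of its mRNA was not tested. Rps27 and its diverged copy Rps27l both hold a tract of 9 bases that starts CTCC and ends in TCC. No such tract lay in the searched window of Rplp0, Rpl35, Rps26, Rps3a1, Rpl28 or Rpl22l1, which says only that these letters are not there.

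Ribosomal protein mRNA made up 1.65 to 2.44% of all counts in the 20 animals. Among members, levels per kilobase of exon were highest for Rps29 (805 CPM per kb), Rps12 (794.1), Rplp1 (608.2), Rpl23a (600.6) and Rpl10 (564.5), as means over the 5 groups. The annotated transcripts of some members are far longer than their coding sequence, from 374 bases for Rps27rt to 6111 for Rpl37 with a median of 1051, and the order changes when the coding length is used. Per coding kilobase the highest were Rpl41 (1829 CPM per kb), Rps29 (1407), Rplp1 (972.7), Rps27 (858.3) and Rps12 (822.7). Rplp1 belongs with Rplp0 and Rplp2 to the P-stalk, the arm of the large subunit that engages elongation factors, and Rplp0 stood at 737.2 and Rplp2 at 578.6 CPM per coding kb. The lowest members on this scale were Rps27rt (12.78), Rps19bp1 (13.12), Rps4l (14.18) and Rpl29 (31.77). The first and the third of these are diverged copies of Rps27 and Rps4x. Introns of 30 members hold 59 snoRNA genes, up to 5 in Rpl4, and reads of these small RNAs can overlap their host genes where a counter does not separate them.

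The members moved together from animal to animal. After the mean of its group was taken from each value on a log2 scale, the median correlation between pairs of members was 0.908 over the 20 animals, with quartiles of 0.77 and 0.952, and 68 members followed the mean of the others with a correlation over 0.9. All points share the library and its scaling, so the figure is a description. The median standard deviation (SD) within a group was 0.291 log2 units and 0.097 once the animal's mean over members was removed. Among the tightest members by the second measure were Rps13 (0.032) and Rps6 (0.04), and the loosest were Rps2 (1.487), Rpl26 (0.487), Rpl3 (0.374), Rps4l (0.369) and Rps29 (0.27). Rps6, the small-subunit protein phosphorylated downstream of mTOR, thus tracked the family closely, while 3 members correlated with the rest below 0.5.

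**Figure D1:**
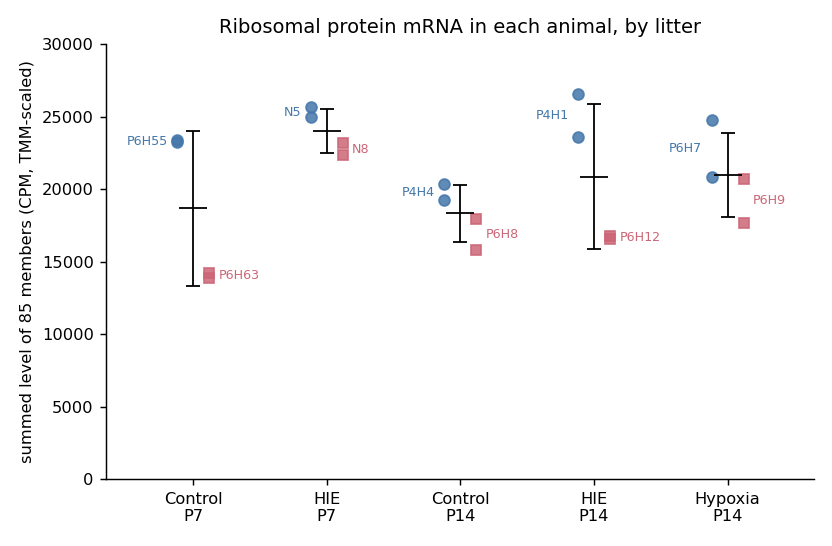
Summed level of the 85 ribosomal protein genes in each animal (CPM after TMM scaling, vertical axis) for the 5 groups on the horizontal axis, with the 2 litters of a group in different colours and symbols and the group mean ± SD in black. Control animals on P7 form pairs near 14069 and 23307 CPM by litter, and the HIE pairs on P14 lie near 25071 and 16660.

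The litters of a group differed in this shared level. The summed level of the members, in CPM scaled by the trimmed mean of M values (TMM), was 14232 and 13906 in the control animals P6H63-7 and P6H63-8 and 23398 and 23217 in P6H55-7 and P6H55-12. In the HIE animals on P7 it was 24938 and 25641 in litter N5 and 22338 and 23179 in N8. The P6H63 pair was thus the lowest of all 20 animals, while the P6H55 pair lay within the range of the HIE animals. On P14 the sums were 19239 and 20346 in control litter P4H4, 17925 and 15797 in P6H8, 23608 and 26535 in HIE litter P4H1, 16555 and 16765 in P6H12, 20833 and 24739 in hypoxia litter P6H7, and 20694 and 17693 in P6H9. Every P14 treatment group overlapped with the others, and the plot of summed levels by litter shows the pairs apart.

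Counted gene by gene, 80 of 85 members were higher in both P6H55 animals than in both P6H63 animals, or 94.1%, beside 38.1% of the 16886 genes at 1 CPM or more. In HIE animals on P14, 82 members (96.5%, all genes 33.3%) were higher in both P4H1 animals than in both P6H12 animals, with a median difference of 0.59 log2 units for members and 0.083 for all genes. The corresponding counts were 72 in HIE animals on P7 (N5 over N8; 84.7%, all genes 21%), 68 in P14 controls (P4H4 over P6H8; 80%, all genes 25.7%) and 53 in the hypoxia group (P6H7 over P6H9; 62.4%, all genes 28.3%). In each group the litter named higher was the one with the higher sum, so the direction was fixed by that choice. In a fit of the HIE and control animals on P14 with treatment as a term, P4H animals were above P6H animals for 8 called members and below for none. It called 1.19% of all genes in either direction, and the median difference was 0.40 log2 units for members and 0.01 for all genes. In each of these treatments a prefix is 1 litter, so this contrast compares the same litters as the counts above.

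Cell type markers varied among the P7 animals. The summed level of the microglia marker list, 11 genes of which 10 were tested, was 2071 and 1349 CPM in the P6H63 animals, 15050 and 13160 in the P6H55 animals and 16860 to 19100 in the HIE animals on P7. The choroid plexus list (7 genes) reached 3350 to 8804 CPM in P7 controls and 1134 to 2124 in HIE, the endothelial list (8 genes) 1090 to 2520 and 763.4 to 1015, and the astrocyte list (8 genes) 874.1 to 2858 and 726 to 970.2. Both P6H63 animals exceeded both P6H55 animals for endothelial and astrocyte markers, whereas for choroid plexus they lay on either side, at 3350 and 8804 around 3746 and 4210. The P6H63 libraries therefore had little of the microglial RNA that the bead selection was meant to enrich. Gene by gene, HIE against control on P7, estimates lay above 0 for 10 of 10 microglia markers (median 1.15 log2 units), 8 of 8 macrophage markers (0.83), 7 of 9 of monocytes and neutrophils, 4 of 7 erythroid markers and 2 of 4 tested lymphocyte markers, and below 0 for 8 of 8 astrocyte, 8 of 8 neuron, 8 of 8 endothelial, 7 of 7 choroid plexus and 7 of 9 oligodendrocyte-lineage markers. Their part in the levels of the members was not tested. In bulk samples a smaller number of cells of a type and less RNA per cell cannot be told apart.

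HIE and control animals on P7 were compared to ask what the injury did to the cells 1 day after hypoxia. No member passed edgeR's quasi-likelihood test at an adjusted p under 0.05, when 0.0666% of 22517 genes did. The estimates leaned upward: 79 of 85 members lay above 0, with a median log2 fold change of 0.29 for members and -0.08 for all genes, and 13 members had an unadjusted p under 0.05, all of them higher, where 7.89% of all genes were higher and 27.3% passed in either direction. DESeq2 called 4 members higher (Rps3a1, Rps26, Rpl30 and Rpsa), where it called 4.33% of genes higher, and edgeR's exact test called Rps3a1 alone (0.764% of genes higher). With library size alone as the scaling, 64 members were above 0 and the median was 0.12, while the median of all genes was -0.28.

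The result depended on the control litter. Against the P6H63 controls alone, 78 members were called higher in HIE with a median of 0.77, where 58.5% of all genes were called. Against the P6H55 controls alone, none was called by the same test (0.112% of genes), 38 of 85 lay above 0 and the median was -0.0345. In that fit 14 members had an unadjusted p under 0.05. The share of all genes at that threshold was not computed, so the 14 cannot be set beside it. Leaving out only the control P6H55-7 gave 15 called members, where 24.2% of all genes were called.

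The 3 members with the largest positive estimates were Rps2, Rps3a1 and Rpl10. Rps2, which lines the channel where mRNA enters the small subunit, had 188.7, 10.28, 19.3 and 42.91 CPM in the controls and 21.3, 326.5, 581.8 and 19.61 in HIE. A pair of HIE animals lay above every control and the other pair within the range of the controls, and the difference was 1.85 log2 units with a standard error (SE) of 1.29 (adjusted p = 0.343 by edgeR's quasi-likelihood test). Rps3a1, a small-subunit protein near the mRNA exit, had 183.2, 178.9, 303.3 and 329.7 CPM in controls and 537.5, 558.7, 482.8 and 495.8 in HIE.
All HIE animals were above all controls for Rps3a1, and the difference was 1.05 ± 0.23 log2 units (SE, n = 4 each; adjusted p = 0.15 by edgeR). Rpl10, which is fitted late into the large subunit near the peptidyl transferase centre, had 302.1, 281.8, 573.4 and 432.1 CPM in controls and 644.7, 646.6, 579.2 and 572.2 in HIE. The highest control lay just above the lowest HIE animal, and the log2 fold change was 0.61 ± 0.23 (adjusted p = 0.16). The 3 members furthest below 0 were Rpl22l1 at -0.18, Rps4l at -0.14 and Rpl38 at -0.14, with adjusted p of 0.342, 0.627 and 0.601.

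In 6 members every HIE animal on P7 exceeded every control, namely Rpl30, Rpl7, Rpl7a, Rps26, Rps3a1 and Rpsa, and in none was the order reversed. That is 7.06% of the members beside 11.8% of all genes at 1 CPM or more. Rps26, which sits at the mRNA exit of the small subunit, had 191.7, 195.6, 290.8 and 238.3 CPM in controls and 353.5, 388.8, 344.3 and 315.5 in HIE. Rpsa, the small-subunit protein also known as the laminin receptor precursor, had 341.8, 417, 556.4 and 478.5 in controls and 636.2, 692.1, 620.7 and 587.4 in HIE. The gap between the groups was small for both beside the spread of the controls, and the log2 fold changes were 0.60 ± 0.16 (SE, adjusted p = 0.15) and 0.49 ± 0.17 (adjusted p = 0.151).

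Other members grouped by role were also above 0 on P7. The P-stalk genes had log2 fold changes of 0.45 for Rplp0, 0.24 for Rplp1 and 0.29 for Rplp2. Rpl5 and Rpl11, which form with 5S ribosomal RNA the particle that binds Mdm2 when ribosome assembly is disturbed, had 0.42 and 0.28. Rps6 had 0.42 with 292.9, 272.5, 494.9 and 478.6 CPM in controls and 537.2, 571.9, 482.4 and 478.5 in HIE, so the P6H55 controls reached the HIE values and the P6H63 controls did not. Medians for the large and the small subunit were 0.28 and 0.30.

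Members with functions of their own showed the same split by control litter. Rps27a, which is made as a fusion with ubiquitin, had 158, 154.9, 294.9 and 300.6 CPM in P7 controls and 305.7, 306.4, 259.9 and 281.7 in HIE. Rpl39, a short protein that lines the exit tunnel, had 86.96, 87.25, 169.7 and 168.3 in controls and 168, 173.3, 147.3 and 157.1 in HIE. For both, the P6H63 controls lay below all other animals of that day. Rpl13a, which also silences inflammatory transcripts in macrophages once it leaves the ribosome, had 264.7, 258.3, 473.2 and 546.1 in controls and 484.3, 471.6, 361.8 and 404.9 in HIE. There the highest value belonged to a P6H55 control, and the HIE litter N8 lay between the control litters. The log2 fold changes were 0.33 for Rps27a, 0.32 for Rpl39, 0.15 for Rpl13a and 0.18 for Rpl41, and on P14 they were 0.22, 0.14, 0.07 and 0.02.

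**Figure D2:**
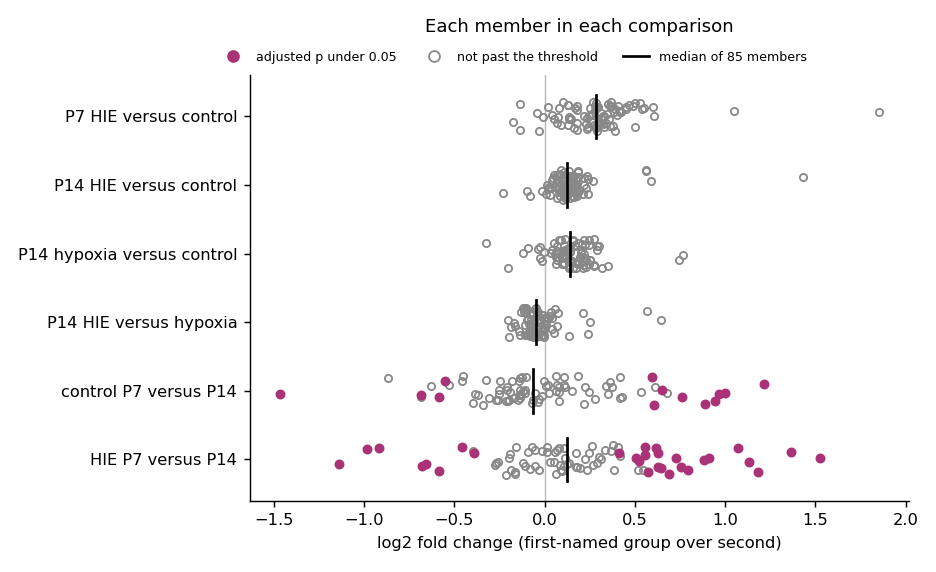
Log2 fold changes of the 85 members in each of 6 comparisons (horizontal axis, first-named group over the second), with filled points for an adjusted p under 0.05 and a line at the median. Filled points appear in the comparisons of P7 with P14, 13 in controls and 29 in HIE, and in no treatment comparison.

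On P14, HIE and control animals were compared to ask what remained a week after hypoxia. No member was called by edgeR's quasi-likelihood test (0.00478% of 20934 genes), 5 members had an unadjusted p under 0.05, all higher (9.87% of all genes in either direction and 3.35% higher), and 81 of 85 estimates lay above 0 with a median of 0.12 for members and 0.01 for all genes. Without P4H1-6F 47 of 85 lay above 0 with a median of 0.004, without P4H1-1M 62 with 0.0405, and without the control P6H8-7M 67 with 0.0409. The median was 0.22 without P6H12-14F and also without P6H12-11M. DESeq2 and edgeR's exact test each called 2 members, Rps2 and Rpl3, both higher (0.511% and 0.244% of genes). Rps2 had 73.68, 73.22, 85.15 and 157.6 CPM in controls and 217.5, 440.5, 232 and 177.5 in HIE. All HIE animals exceeded all controls, and the log2 fold change was 1.43 ± 0.32 (SE, adjusted p = 0.228). Rpl3, a large-subunit protein at the peptidyl transferase centre, had 364.3, 364.4, 391 and 320.3 CPM in controls and 544, 657.8, 423.6 and 535.2 in HIE. The groups again did not overlap, with 0.56 ± 0.13 (adjusted p = 0.228), and no other member was separated in this way (2 of 85, or 2.35%, beside 3.31% of all genes).

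Rps4l, the diverged copy of Rps4x, was the remaining member with a large positive estimate on P14, 0.59 ± 0.22 (SE, adjusted p = 0.4). It had 4.9, 9.29, 5.6 and 6.62 CPM in controls and 11.8, 11.7, 8.36 and 8.43 in HIE, and the P6H8-8F control lay between the HIE litters. The lowest estimates were Rpl30 at -0.23, Rps19bp1 at -0.10 and Rpl35rt at -0.08, with adjusted p from 0.79 to 0.937. HIE litters stood apart for most members: Rplp0 had 744.9 and 906.5 CPM in P4H1 and 504.2 and 539.4 in P6H12, against 646.1, 592.5, 663.9 and 507.7 in controls.

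Cell type markers differed beside these values on P14. In HIE against control, 8 of 8 neuron markers (median -0.98 log2 units, 4 called lower by DESeq2), 9 of 9 oligodendrocyte-lineage markers (-0.73, 1 called by DESeq2), 8 of 8 astrocyte (-0.46) and 7 of 7 erythroid markers (-1.54) lay below 0. DESeq2 called 2.34% of all genes in either direction there. Above 0 were 10 of 10 microglia (0.20), 8 of 8 endothelial (0.45), 7 of 7 choroid plexus (0.39) and 8 of 9 monocyte and neutrophil markers (0.87), with none called by edgeR's quasi-likelihood test. In hypoxia against control, 8 of 8 astrocyte (-0.76), 7 of 8 neuron (-0.74), 9 of 9 oligodendrocyte-lineage (-0.44), 7 of 7 choroid plexus (-0.51) and 7 of 7 erythroid markers (-1.39) lay below 0. On the upper side were 9 of 10 microglia (0.11), 8 of 8 endothelial (0.35), 5 of 8 macrophage (0.04) and 7 of 9 monocyte and neutrophil markers (0.78). In HIE against hypoxia, 7 of 7 choroid plexus markers lay above 0 (0.88) and 9 of 9 oligodendrocyte-lineage markers below (-0.30). Their part in the levels of the members was not tested.

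The hypoxia group shared its P14 controls with the HIE comparison. Hypoxia against control gave no member called by edgeR's quasi-likelihood test (0.00955% of 20953 genes), 6 with an unadjusted p under 0.05, all higher (9.53% of genes in either direction and 2.97% higher), 76 of 85 above 0, and a median of 0.14 for members and -0.01 for all genes. All 4 hypoxia animals carry the prefix P6H, and against the P6H controls alone 82 estimates lay above 0 with a median of 0.28, again with none called by this test (0.00% of genes). The median was 0.062 without P6H7-8F, 0.066 without the control P6H8-7M and 0.22 without P6H9-15F. DESeq2 and the exact test each called 1 member, Rps3a1, as higher (0.253% and 0.110% of genes). Rps3a1 had 313.9, 283.9, 323.9 and 390 CPM in controls and 533, 524, 490.4 and 687 in hypoxia animals. The groups were apart, and hypoxia exceeded control by 0.74 ± 0.13 log2 units (SE; adjusted p = 0.406 by edgeR). Rpl3 was apart as well, at 414.6, 492.9, 438.3 and 457.6 CPM in hypoxia animals and 364.3, 364.4, 391 and 320.3 in controls. No other member was separated in this comparison (2 of 85, or 2.35%, beside 2.93% of genes at 1 CPM or more). Rps2 stood at 0.77 (adjusted p = 0.52) and Rps4l at 0.35 (0.711), and the lowest were Rpl26 at -0.33 (0.82), Rpl30 at -0.20 (0.782) and Rps19bp1 at -0.12 (0.887). Rpl26, a protein near the exit tunnel, had 158.5, 145.3, 36.11 and 194.9 CPM in hypoxia animals, and the low value of P6H9-15F set its estimate.

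HIE against hypoxia on P14 gave no called member by edgeR's quasi-likelihood test, by DESeq2 or by the exact test (0.00955%, 0.0716% and 0.0811% of 20949 genes), and none with an unadjusted p under 0.05 (4.53% of genes). Here 20 of 85 estimates lay above 0 and the median was -0.05, beside -0.01 for all genes. The sign depended on single animals, with 76 above 0 and a median of 0.057 without P6H12-11M, 64 and 0.048 without P6H12-14F, and 66 and 0.047 without P6H7-8F. It went further down without P4H1-6F (5 above 0, median -0.16), P4H1-1M (7, -0.12) or P6H9-15F (8, -0.13). The largest positive estimates were Rps2 at 0.64, Rpl26 at 0.57 and Rplp1 at 0.25, and the largest negative ones Rps3a1 at -0.20, Rpl17 at -0.20 and Rpl22l1 at -0.19, all with an adjusted p of at least 0.999. Among P6H animals alone, which keeps only litter P6H12 of the HIE group, 3 estimates lay above 0, the median was -0.36 and none was called (0.0136% of genes). The test of whether the HIE difference itself was unequal on P7 and P14 called no member either (0.00405% of 24693 genes; 2 members at an unadjusted p under 0.05 and 13.9% of genes). Its extremes were Rpl30 at 0.75 (adjusted p = 0.255), Rps26 at 0.52 and Rpl10 at 0.48 on the upper side, and Rps4l at -0.73, Rpl3 at -0.47 and Rpl38 at -0.27 on the lower side.

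Several of the members with the largest differences share near-identical sequence with other genes in the files. A total of 328 copies, 321 of them with -ps in the symbol, are named after 65 of the members, and the copies held over 10% of the summed counts for 10 members. These were Rps18 (75.6%), Rps2 (69.7%), Rpl34 (62.1%), Rpsa (38.4%), Rpl3 (33%), Rpl35a (31.9%), Rps7 (27.5%), Rps24 (14.6%), Rps3a1 (13.7%) and Rpl35 (12.7%). RSEM, which the study used for counting, divides reads that fit several genes among them by an estimate, so values of these members are uncertain.

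Among these, Rps3a1 had copies whose counts differed plainly between animals. Its copies Rps3a2 (chr14:88360453-88361244) and Rps3a3 (chr13:108807137-108807931), both annotated as processed pseudogenes, together had 123.5 to 213.2 CPM in all 4 P7 controls, in the P14 controls P4H4-8M, P6H8-8F and P4H4-7F and in the HIE animal P6H12-11M. In the other 12 animals they had 2.05 to 8.52 CPM. With gene and copies summed, the P7 values were 315.9, 302.4, 516.6 and 520.1 CPM in controls and 544.5, 567.2, 490.3 and 502.5 in HIE. The controls of litter P6H55 then overlapped with the HIE animals, and the log2 fold change went from 1.05 to 0.35 (adjusted p = 0.284). In the P14 hypoxia comparison the sum gave 0.29 (adjusted p = 0.524) in place of 0.74.

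**Figure D3:**
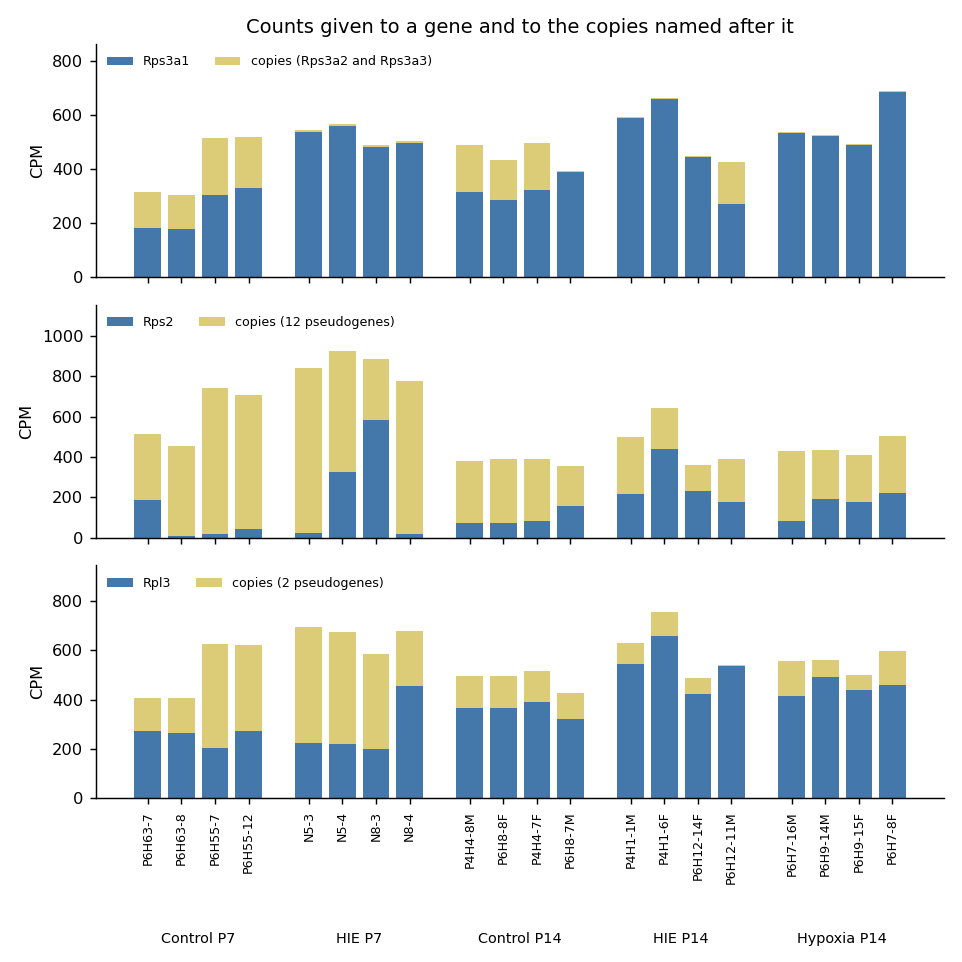
Counts (CPM) given to a member (lower part of each bar) and to the copies named after it (upper part) in each of the 20 animals, for Rps3a1, Rps2 and Rpl3. The copies of Rps3a1 are near 0 in 12 animals and between 123.5 and 213.2 CPM in 8.

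The counts given to Rps2 and to 12 pseudogenes named after it, led by Rps2-ps10, were as uneven. The gene alone ranged from 10.28 to 581.8 CPM over the 8 animals of the P7 set, whereas the sum was 514.2, 457.3, 740.9 and 707.5 in controls and 839, 924.2, 887.4 and 777.3 in HIE. For the sum, every HIE animal on P7 exceeded every control, by 0.51 ± 0.19 log2 units (SE; adjusted p = 0.156 by edgeR). On P14 the sum was 378.3, 388.7, 390.4 and 358 in controls and 499.3, 642.9, 359.4 and 391 in HIE. The HIE litter P6H12 then lay at the controls, and the log2 fold change was 0.30 (adjusted p = 0.626) in place of 1.43. For Rpl3 with Rpl3-ps1 and Rpl3-ps2 the P14 HIE difference was 0.30 (adjusted p = 0.513) in place of 0.56.

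The same treatment was also compared between days. In controls, 13 members were called between P7 and P14, 9 higher and 4 lower on P7, in a comparison that called 33.0% of 22320 genes, 17.4% higher and 15.6% lower. The median was -0.06 for members and 0.02 for all genes and turned to 0.12 for members with library size alone as the scaling, which raised all genes to 0.23 and gave 19 members higher and 2 lower with 36.1% of all genes called. Leaving out 1 control at a time also turned the sign, from -0.19 without P6H55-7 to 0.10 without P6H63-8. In HIE animals, 29 members were called, 21 higher and 8 lower on P7, where 46.0% of 22579 genes were called, 23.2% higher and 22.8% lower, and the median was 0.12 for members and -0.02 for all genes. In both comparisons the share of members called was below that of all genes. Of the called members 12 were in both lists and had the same sign in both, which is 92.3% of the control list and 41.4% of the HIE list. The overlap over all genes was not computed, so these shares cannot be read as particular to the members.

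Among members that were higher on P7, Rps26 had the largest difference in HIE animals. It was at 353.5, 388.8, 344.3 and 315.5 CPM on P7 and at 148.7, 153, 92.48 and 88.5 on P14. In controls it had 191.7, 195.6, 290.8 and 238.3 on P7 and 119.7, 110, 135 and 88.7 on P14. The days did not overlap in either treatment, and Rps26 was higher on P7 than on P14 by 1.52 ± 0.18 log2 units in HIE (SE; adjusted p = 0.000119) and 0.96 ± 0.19 in controls (adjusted p = 0.00725).

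Rpl35, at the exit tunnel of the large subunit, had 338, 360.2, 296.4 and 305.4 CPM in HIE animals on P7 and 143.9, 154.1, 105.5 and 96.01 on P14. Controls had 183.1, 170.8, 307.1 and 249.8 on P7 and 115.2, 112.7, 123.5 and 88.41 on P14. The gene was separated by day in both treatments, at 1.37 ± 0.15 (SE, adjusted p = 7.7e-05) and 1.00 ± 0.21 (adjusted p = 0.00995). Rpl28 was higher by 1.13 in HIE and 0.89 in controls, Rpsa by 1.18 and 0.76, and Rps27l by 1.07 and 0.94. Rps27l, the diverged copy of Rps27 and a target of p53, had 25.02 to 29.12 CPM in P7 controls and 11.84 to 14.9 in P14 controls.

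Among members higher on P7, Rps4l had the largest difference in controls, with 15.17, 15.54, 15.92 and 16.96 CPM on P7 and 4.9, 9.29, 5.6 and 6.62 on P14. It was called there at 1.22 ± 0.21 (SE, adjusted p = 0.00473). In HIE animals it stood at 0.52 (adjusted p = 0.0558), and the 2 differences were not shown to be unequal by the test of the interaction (adjusted p = 0.303). It was the 1 member called in controls and not in HIE by this test.

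Rpl35rt, an intronless copy of Rpl35 on chromosome 1 (chr1:156193610-156194054), went the other way. It had 9.53, 7.9, 13.9 and 21.1 CPM in P7 controls and 33.5, 36.2, 40.1 and 30.2 in P14 controls, and 15.3, 15.6, 14.2 and 16.6 in P7 HIE animals beside 40.2, 42.9, 22.8 and 28.7 on P14. All P7 values were below all P14 values of the same treatment. Rpl35rt was lower on P7 than on P14 by 1.47 on the log2 scale in controls and by 1.14 in HIE. Rpl35 and Rpl35rt thus differed between the days in opposite directions, and since the 2 share sequence their counts are not independent. Summed with Rpl35rt and its pseudogene, Rpl35 was still higher on P7, by 0.68 in controls (adjusted p = 0.0389) and by 1.09 in HIE (adjusted p = 0.000316).

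The other members lower on P7 were weaker or changed when summed with their copies, and the reason for the change was not tested. Rpl5 was called at -0.69 in controls and -0.39 in HIE and Rpl22 at -0.58 in both, yet neither control call held against P6H55 alone, where adjusted p was 0.056 and 0.146. Rpl3 stood at -0.55 in controls and -0.99 in HIE, but with its pseudogenes it was at 0.041 (adjusted p = 0.889) and 0.11 (adjusted p = 0.527). Rps18 in HIE animals went from -0.68 to 0.073 (adjusted p = 0.745) when summed with its copies. Rpl19 at -0.92 and Rps9 at -0.66 were called in HIE and not in controls. Rps2, which was not called between days as a gene, was higher on P7 as a sum with its pseudogenes, by 0.62 in controls (adjusted p = 0.0369) and by 0.84 in HIE (adjusted p = 0.00246).

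**Figure D4:**
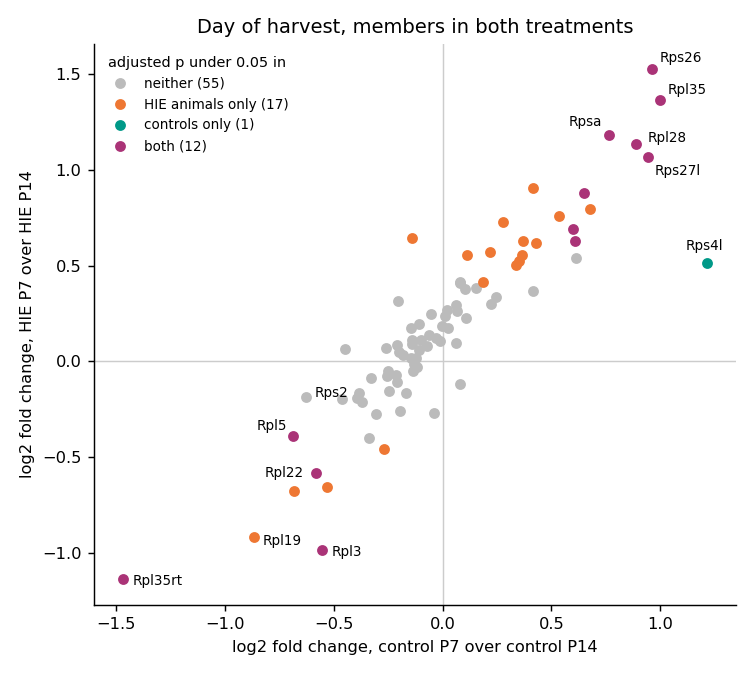
Each point is 1 of the 85 members, with the log2 fold change of P7 over P14 in controls on the horizontal axis and in HIE animals on the vertical axis, and colours for members called in both, in 1 or in neither comparison. The 12 members called in both lie at the upper right (8) and lower left (4), and 55 were called in neither.

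Which controls were used decided how the family as a whole compared between days. Against the P14 controls, the P6H63 animals gave 55 called members, 9 higher and 46 lower (median -0.39, 59.0% of genes called), and the P6H55 animals gave 32, 29 higher and 3 lower (median 0.29, 31.2% of genes called). Rps4l, Rpl35, Rps26, Rps27l, Rpl28, Rpl35rt and Rpl3 were called with either litter. The share of all genes called with either litter was not computed. By subunit, the 50 large-subunit genes gave 4 higher and 4 lower in controls and 12 higher and 6 lower in HIE, and the 35 small-subunit genes 5 and 0 in controls and 9 and 2 in HIE. Libraries of the P7 set also had a lower mitochondrial share of counts (1.51 to 2.62%) than those of the P14 set (3.26 to 5.32%) and a higher share from ribosomal protein pseudogenes (0.11 to 0.192% and 0.0635 to 0.0957%). The abundant small RNAs Rn7sk, Rn7s1, Rn7s2, Rmrp and Rpph1 together took 0.938 to 5.19% of counts on P7 and 8.29 to 11.2% on P14. In controls, 10 of 10 microglia markers lay lower on P7 (median -1.43 log2 units) and 6 of 7 erythroid markers (-1.26). So did 8 of 9 monocyte and neutrophil (-0.60), 6 of 9 oligodendrocyte-lineage (-0.80) and 5 of 8 astrocyte markers (-0.44). Choroid plexus (7 of 7, 0.94) and endothelial markers (7 of 8, 0.63) lay higher. In HIE animals 7 of 10 microglia markers (-0.47), 7 of 7 choroid plexus (-0.87), 7 of 8 endothelial (-0.53) and 4 of 7 erythroid markers (-4.20) lay lower on P7. Lower too were 8 of 9 monocyte and neutrophil (-1.10), 7 of 9 oligodendrocyte-lineage (-0.77) and 6 of 8 astrocyte markers (-0.81), while 7 of 8 macrophage markers lay higher (0.64). The part of any of these in the day differences was not tested.

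Diverged copies were next set beside their parents, in CPM per kilobase of coding sequence, to see how the makeup of the family compared between groups. Rps27l stood at 15.8% ± 4.98 of Rps27 in P7 controls and 13.5% ± 2.06 in P7 HIE (SD, n = 4 each), against 7.01% ± 0.631 in controls, 6.37% ± 0.466 in HIE and 5.54% ± 0.944 in hypoxia animals on P14. The lowest P7 animal, at 10.8%, was above the highest on P14, at 7.8%. On P7 the controls, which pool litters P6H63 and P6H55, ran from 10.8 to 21.5%. The HIE animals ran from 11.1 to 15.3%, within the range of the controls. Rpl22l1, whose product can replace that of Rpl22 in the ribosome, was at 40.8% ± 5.74 and 33.7% ± 5.53 of Rpl22 on P7 and at 25.4% ± 2.71, 24% ± 1.51 and 26.2% ± 2.81 on P14. The lowest P7 HIE animal, at 27.3%, lay below the highest P14 control, at 28.9%. Rpl22l1 itself was at 22.72 to 29.38 CPM in P7 controls and 22.78 to 28.21 in P14 controls, and Rpl22 at 58.12 to 94.35 and 83.48 to 116.6.

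Rpl35rt made up 5.7% ± 1.85 and 4.78% ± 0.492 of Rpl35 on P7 and 32% ± 2.1, 26.8% ± 3.58 and 27.2% ± 4.5 on P14. Rps4l was at 4.1% ± 0.98 of Rps4x in P7 controls and 2.64% ± 0.933 in P7 HIE, and at 1.36% ± 0.458, 1.72% ± 0.145 and 1.38% ± 0.383 on P14. For Rps4l the days overlapped, as the lowest P7 HIE animal was at 1.8% and the highest P14 control at 1.91%. P7 controls (2.94 to 5.01%) and P7 HIE animals (1.8 to 3.87%) overlapped as well. No difference by day as large as for Rps27l or Rpl35rt was seen in Rpl36al or Rpl7l1. By group mean they were at 40.9 to 50.2% of Rpl36a and 14.2 to 16.4% of Rpl7. These ratios were not tested beyond the fits of the single genes given above.

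**Figure D5:**
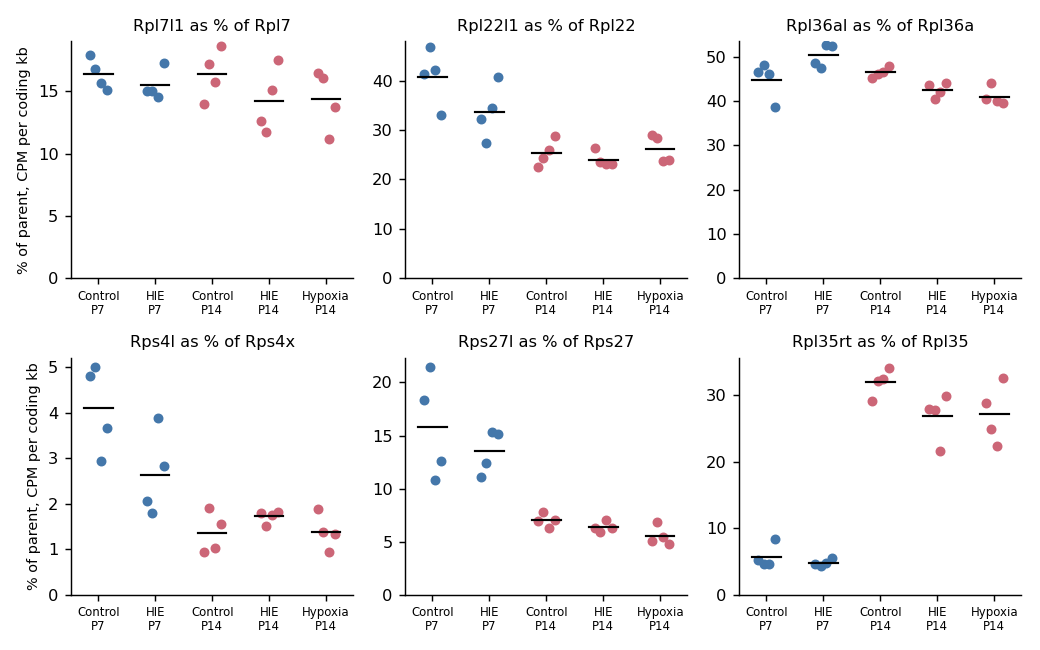
Level of a diverged copy as a percentage of its parent gene (vertical axes, CPM per kilobase of coding sequence) in each animal of the 5 groups (horizontal axes), with the group mean as a line and the days in different colours. Rps27l and Rps4l have their highest means on P7, Rpl35rt is at 32% in P14 controls and 5.7% in P7 controls, and Rpl36al and Rpl7l1 show no such step.

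Genes of the same machinery that are not members were followed as lists. Some lists share genes, among them the other TOP mRNAs and the initiation factors, so their counts and medians are not independent. On P7, HIE against control, edgeR's quasi-likelihood test called no gene of any list. DESeq2 called 4.33% of all genes higher and 13.4% in either direction. From the lists it called 4 initiation factors, 1 elongation factor, 1 of the other mRNAs with a TOP motif and 1 gene of TOP and mTOR control higher. Also higher were 2 genes of quality control, 1 of the MYC and p53 axis and 3 mitochondrial ribosomal proteins. Called lower were 1 gene of quality control, 1 snoRNA host RNA, 1 of the MYC and p53 axis and 3 mitochondrial ribosomal proteins. Translation elongation factors lay above 0 for 5 of 5 genes (median 0.36), initiation factors for 26 of 30 (0.14), other mRNAs known to carry a TOP motif for 16 of 17 (0.36), regulators of TOP mRNAs and mTOR for 11 of 16 (0.16), genes of ribosome biogenesis for 20 of 32 (0.04) and of ribosome quality control for 6 of 10 (0.07), the MYC and p53 axis for 6 of 8 (0.19) and the 3 ribosomal proteins outside the name rule for 3 of 3 (0.40). Mitochondrial ribosomal proteins, which build a separate ribosome, were above 0 for 34 of 78 (median -0.01) and snoRNA host RNAs for 1 of 8 (-0.32). On P14, HIE against control, the quasi-likelihood test again called none and DESeq2 called 2 snoRNA host RNAs lower (2.34% of all genes in either direction). The medians in the same order were 0.15, 0.08, 0.13, 0.06, 0.07, -0.0028, -0.03 and 0.12, then 0.03 for mitochondrial ribosomal proteins and -0.29 for snoRNA host RNAs.

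Between days, members of these lists were called in both directions. In HIE animals, where 23.2% of all genes were called higher and 22.8% lower, 16 of 30 initiation factors were called higher on P7 and 2 lower (median 0.33), led by Pabpc1 (poly(A)-binding protein) at 1.91, Eif1 at 1.71 and Eif5a at 1.42. Ribosome biogenesis gave 16 higher and 2 lower of 32 (median 0.34), among them the snoRNP proteins Nhp2 at 0.94 and Fbl at 0.65, and mitochondrial ribosomal proteins 28 higher and 1 lower of 78 (0.23), led by Mrpl12 at 1.27. In controls the counts were 9 and 1, 10 and 0, and 21 and 1, where 17.4% of all genes were called higher and 15.6% lower. The translation elongation factors gave 1 higher of 5 in HIE, Eef2 at 0.45, and none in controls.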

How the data were processed

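The deposited files hold expected counts per gene, which the authors made with RSEM after alignment with STAR to GRCm39, from ribosome-depleted stranded total RNA; FastQC is also named in the submitters' processing notes, without versions. No deposited per-sample column was left unused. Expected counts were rounded and the 2 libraries of 1 animal summed. Identifiers were matched to GENCODE M39 (56017 of 56691).

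Tests used edgeR 4.0.16 in R 4.3.3: TMM scaling, filterByExpr, a quasi-likelihood test within the groups compared, and Benjamini-Hochberg adjustment over all genes tested, with 0.05 as the threshold. DESeq2 1.42.0 and the exact test (likelihood ratio test for the interaction) were alternatives. CPM values are TMM-scaled, with 0.5 added before log2, except the minimum for membership. Scripts were tested on simulated counts. A floor of 3 counts was 0.0359 to 0.101 CPM and covers counting error only.

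The members, marker lists and pathway lists were chosen with earlier results of these data known. Named in each comparison were up to 5 called members in each direction, or 3 where fewer were called, with members fixed by role and diverged copies. Exceptions chosen after their values were seen are members called by another tool, members without overlap, and Rps18 and Rps2 in the sums with copies. Some single-member values are not reported here.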

Additional observations from a re-analysis of the deposited data

Results flagged for a closer look

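Of 210 groups of 4 animals examined over 42 measures, among them the named members, 5 held an animal whose gap to its nearest neighbour, as a share of the group's range, was past Dixon's limit for 4 samples, where chance gives about 1 in 20. Rpl3 in P7 controls was at 205.9 CPM in P6H55-7 and at 265.9 to 273.1 in the others. Rpl3 in P7 HIE animals was at 453.7 in N8-4 and at 200.9 to 225 in the others, and the same animal had 220.3 CPM of Rpl3-ps1 where the others had 382 to 466.1. Rps2 in P14 controls was at 157.6 in P6H8-7M and at 73.22 to 85.15 in the others. Rpl7l1, the diverged copy of Rpl7, was at 61.28 in the P7 HIE animal N8-3 (others 72.95 to 75.18) and at 40.91 in the hypoxia animal P6H9-15F (others 69.18 to 74.94). P6H9-15F was also the animal with the low Rpl26 value of 36.11, which did not pass the same limit.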

How the results depend on the processing

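Counts of called members and their medians stayed within the set limits in 252 cases and moved in 16. The limit was a fixed ratio for counts and, for medians, the SD within groups of the members' mean log2 level. Direction was not part of these limits, so a median could change sign and still count as within them. DESeq2 called 4 members on P7, 2 in the P14 HIE comparison and 1 in the hypoxia comparison, and the exact test 1, 2 and 1, where the quasi-likelihood test called 0. P6H63 controls alone gave 78 on P7 (median 0.77) and 55 between days (median -0.39), and P6H55 controls alone gave a median of -0.0345 on P7 and, between days, 32 members (median 0.29). Library size alone gave 21 members between days in controls (36.1% of all genes). P6H animals alone gave a median of -0.36 for HIE against hypoxia. The causes were not tested. Summing with copies, an alternative chosen after seeing the data, reversed Rpl3 between days (0.041 in controls, 0.11 in HIE) and Rps18 in HIE (0.073).

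Leaving out 1 animal at a time gave 0 to 15 called members on P7 (15 without P6H55-7; 0.0432 to 24.2% of all genes), 9 to 16 between days in controls (20.3 to 39.1%) and 24 to 40 in HIE (38.6 to 49.8%), and 0 elsewhere. Directions of the medians turned for HIE against hypoxia (-0.16 to 0.057) and for the control days (-0.19 to 0.10). Values of single members were counted together with the medians of all genes, which were always entered as alike. Of these, 1007 were alike, 27 lost their call and 12 gained one. A further 8 changed sign without a call in either setting, and 3 reversed as given above. Control calls of Rpl5 and Rpl22 between days were lost most often. No paired analysis was possible because animals carry names and not shared replicate numbers, and each litter belongs to 1 treatment. Depth did not limit members, all of which passed the count filter in every comparison, while 4 animals from 2 litters limit each group.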
